A study of Mus musculus with 9 samples.

Results

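This account sets CD8 T cells primed in the spleen against naive CD8 T cells, gene by gene. All cells were mouse OT-I cells, CD8 T cells that carry a transgenic T cell receptor for an ovalbumin peptide presented by the MHC class I molecule H2-Kb. Bulk RNA was sequenced from 9 libraries in 3 groups of 3. The naive libraries and the spleen-primed libraries, 6 in all, are compared here, and both came from spleen according to the labels. The 3 remaining libraries, of cells primed in the MLN, enter only the choice of genes tested, the alternative scalings, the estimate of the spread and the last comparison. The titles of the spleen-primed libraries begin with iv, but the labels give no antigen dose, time after priming, sorting gate, mouse strain, age or number of animals. They do not say whether separate mice stand behind the replicates, so each p-value rests on library-to-library spread that may be technical in part or whole. Of 23936 genes with a symbol, 10185 had at least 1 FPKM (fragments mapped to a gene, scaled to transcript length and to the library's mapped fragments) in at least 3 of the 9 libraries and were tested.

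Naive CD8 T cells are small resting cells that circulate between blood and lymphoid organs, guided by CCR7 and adhesion receptors, and live on interleukin 7. When their receptor meets its peptide on an antigen-presenting cell they enlarge, divide many times and become effector cells. Effector cells store perforin and granzymes in granules, secrete interferon gamma and chemokines, exchange lymph node homing receptors for receptors of inflamed tissue, and run glycolysis and respiration at a high rate. The transcription factors TCF1 (Tcf7), LEF1, BACH2 and FOXO1 are tied to the naive and memory states, and T-bet (Tbx21), ID2, BLIMP1 (Prdm1) and ZEB2 to the effector state.

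The libraries of each group were close to each other, and FPKM totals were 615479 to 720165 per naive or spleen-primed library with 9487 to 9667 genes at 1 FPKM or more. Across genes, log2(FPKM + 1) correlated at 0.989 to 0.990 within the naive group, at 0.988 to 0.995 within the spleen-primed group and at 0.812 to 0.826 between them. FPKM keep no read numbers, so the depth is unknown and no counting error can be given. Naive library 2 stood apart by its immediate early genes, and spleen-primed library 3 by its long transcripts: within its group, its values rose by 0.0787 log2 units per unit of log2 transcript length, against -0.0512 and -0.0275 for libraries 1 and 2. The groups differed as well. Across genes, the slope of log2(FPKM + 1) on log2 length was -0.391, -0.467 and -0.396 in naive libraries 1 to 3. In spleen-primed libraries 1 to 3 it was -0.712, -0.688 and -0.582, and the source of this difference was not tested. Cd74, known from MHC class II cells, measured 38.1, 61.3 and 66.8 FPKM in naive libraries 1 to 3. S100a8, known from neutrophils, measured 1.82, 12.1 and 19.6 FPKM in them. In the spleen-primed libraries these genes measured 3.29, 1.36 and 1.69 and 0.15, 0.154 and 0 FPKM. Of 8 neutrophil markers 7 were below the filter. Of 10 dendritic cell and MHC class II markers 5 were below it, 4 were lower in spleen-primed cells and 1 was higher. The part of other cells was not tested.

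Priming went with a change in most of the transcriptome. On the log2(FPKM + 1) scale, 4387 of the 10185 genes were higher in spleen-primed than in naive cells (43.1%) and 3331 were lower (32.7%), 75.8% in either direction, at a Benjamini-Hochberg adjusted p under 0.05 by limma. Changes of at least 1 log2 unit were found for 1755 genes upward (17.2%) and 1150 genes downward (11.3%). The large changes leaned upward: at 4 log2 units or more, 135 genes were higher and 26 lower. The values of both groups did not overlap for 7960 genes (78.2%). The balance of directions depends on how libraries are scaled: 56.8% of the calls were higher with the deposited values and 46.6% after quantile normalisation (34.8% of all genes higher and 40% lower), which moved the median change of all genes from 0.10 to -0.067. Counts of list members below are to be read against the 43.1% and 32.7% of all genes. In bulk RNA, fewer cells of a type and less RNA per cell cannot be told apart.

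**Figure D1:**
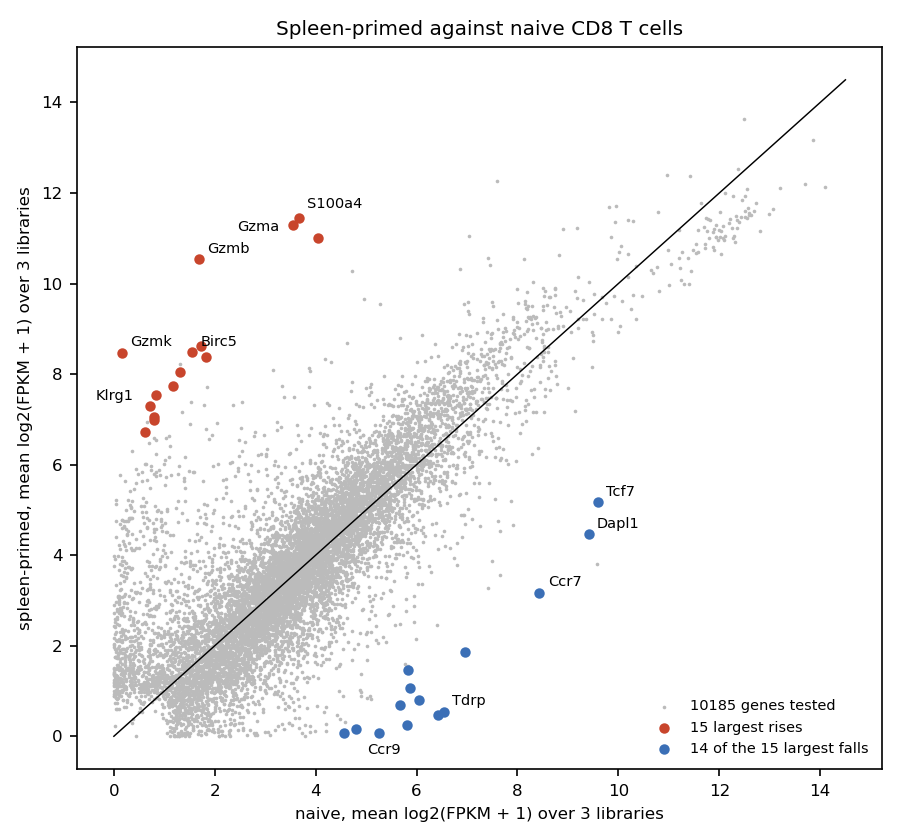
Mean log2(FPKM + 1) of 3 spleen-primed libraries (vertical axis) against that of 3 naive libraries (horizontal axis) for the 10185 genes tested, with the line of equal values. The 15 largest rises (red) lie far above the line, led by Gzmb, and 14 of the 15 largest falls (blue) far below it, led by Tdrp.

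The 15 largest rises were mostly of 3 kinds: granzymes, calcium-binding and galectin genes, and genes of the dividing cell. Gene models with clone names were left out of both sets of 15, among them 2810417H13Rik (6.90) and 1500009L16Rik (6.29). Each changed by at least 6.10 log2 units, and the highest adjusted p among them was 2.9e-08 (S100a6). Gzmb (chr14:56258836-56262334), the granzyme that triggers caspases in target cells, was 1.75, 1.81 and 3.34 FPKM in naive libraries 1 to 3 and 1676, 1416 and 1405 FPKM in spleen-primed libraries 1 to 3. Its log2 change was 8.86 ± 0.16 (SE), a mean level 651 times as high. Gzmk (chr13:113171630-113180965), a granzyme with trypsin-like activity, was 0.0766, 0.123 and 0.138 FPKM in naive and 386, 392 and 295 FPKM in spleen-primed cells. Its near-absence in all 3 naive libraries set it apart from Gzma (chr13:113093824-113100981), the other tryptase of the granule, which started from 7.37, 9.79 and 17 FPKM and reached 2822, 2748 and 2016 FPKM. Klrg1 (chr6:122270596-122282833), an inhibitory receptor of short-lived effector cells, moved from 0.243, 0.359 and 1.58 to 173, 164 and 134 FPKM. For all 4 genes the lowest spleen-primed value lay far above the highest naive value, but genes with overlapping groups could not enter the 15.

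S100a4 (chr3:90603770-90606045) and S100a6 (chr3:90612894-90614414) encode neighbouring calcium-binding proteins on chromosome 3 that act on the cytoskeleton and membranes. S100a4 was 13.2, 11.1 and 10.9 FPKM in naive and 2971, 2883 and 2515 FPKM in spleen-primed libraries, a log2 change of 7.78 ± 0.09. S100a6 was 9.41, 31.3 and 12.2 and 2068, 2050.5 and 2013 FPKM, so the naive libraries varied more among themselves than the spleen-primed ones. Lgals3 (chr14:47373860-47386167), a galectin that binds glycans, was 1.7, 2.33 and 2.95 FPKM in naive and 417, 407 and 359 FPKM in spleen-primed libraries. The other 8 of the 15 were genes of DNA synthesis and mitosis: Birc5, Ube2c, Ccna2, Ccnb2, Rrm2, Tk1, Ccnb1 and Plk1, with log2 changes from 6.94 for Birc5 to 6.10 for Plk1. Just outside the 15 stood Mt1 (5.94), a metallothionein, and Top2a (5.88), the topoisomerase of mitotic chromosomes.

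The 15 largest falls included homing receptors, a cytokine receptor and a transcription factor of naive T cells. Of these, 14 are described here. Ccr7 (chr11:99144199-99155077), the receptor for the chemokines of the T cell zone, fell from 337, 336 and 364 FPKM in naive libraries 1 to 3 to 7.01, 8.93 and 8.21 FPKM in spleen-primed libraries, a mean level 42.9 times lower. Tcf7 (chr11:52246527-52283383), which encodes TCF1, fell from 739, 776 and 809.6 to 25.9, 38.3 and 43.8 FPKM and so remained above Ccr7 in level. In both genes the 3 naive values lay close together and far above all spleen-primed values. Absence of overlap between the groups was a condition for entering the 15.

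Ccr9 (chr9:123767211-123783457), the gut-homing chemokine receptor that naive CD8 T cells also carry, was 44.8, 32.5 and 35.7 FPKM in naive and 0.0349, 0.0807 and 0.0419 FPKM in spleen-primed libraries. Il6ra (chr3:89869324-89913196), the interleukin 6 receptor, was 55.2, 56.6 and 61.8 and 0.786, 0.95 and 1.66 FPKM. St6gal1 (chr16:23224729-23360350), the sialyltransferase that adds terminal sialic acid to N-glycans, was 88.4, 78.5 and 88.5 and 0.467, 0.385 and 0.332 FPKM. All 3 genes were near the lower end of the scale in every spleen-primed library. The largest fall of all was that of Tdrp (chr8:13952008-13975478), at -5.99 ± 0.09 log2 units, from 98.7, 84.6 and 93.3 to 0.456, 0.55 and 0.379 FPKM. The other falls described were Igfbp4 (-5.56), Fam101b (-5.24, Rflnb in RefSeq), Nsg2 (-5.09), Atp1b1 (-4.99), a sodium pump subunit, Dapl1 (-4.95), H2-Ob (-4.65), Pdlim4 (-4.49) and Bambi-ps1 (-4.38), a transcribed pseudogene. H2-Ob encodes a chain of an MHC class II accessory molecule, and its naive level of 27.4, 27.8 and 25.4 FPKM stood beside H2-Aa, a class II chain, at 23.6, 36.7 and 39.7 FPKM in the same libraries, and the part of other cells in it was not tested. On the log2(FPKM + 1) scale Pdlim4 had the widest naive spread of the falls described, with 25, 39.1 and 11.6 FPKM. The next genes in order were Fos (-4.29) and Ephx1 (-4.28).

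**Figure D2:**
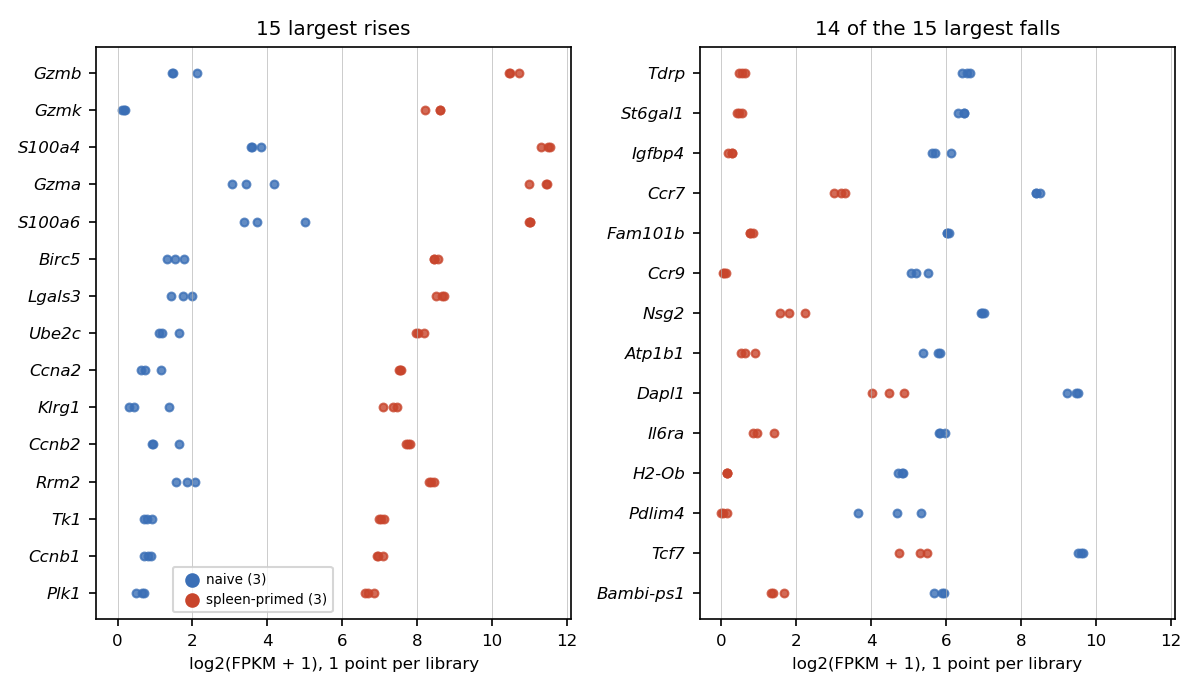
log2(FPKM + 1) of each library for the 15 largest rises (left) and 14 of the 15 largest falls (right), naive libraries in blue and spleen-primed libraries in red, 1 point per library. The genes were chosen to have no overlap between the groups, so the gap between naive and spleen-primed points follows from that choice. Pdlim4 shows the widest spread among the naive points.

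Most genes of the killing machinery rose. Of 24 genes of the cytotoxic granule and of killing, 23 were tested, 19 were higher and 2 lower, with a median log2 change of 1.80 against 0.10 for all genes. Prf1, the pore-forming perforin, was 20.6, 21.7 and 22.7 FPKM in naive and 89.7, 89.8 and 78 FPKM in spleen-primed libraries, a log2 change of 1.93 ± 0.08. Its mean level was 3.96 times as high, a far smaller ratio than that of Gzmb, from a higher naive start. Gzmm (2.86 ± 0.26) and Gzmc (1.77 ± 0.14) also rose, Gzmc only to a mean of 2.66 FPKM. The serpins that protect the cell from its own granzymes rose with them: Serpinb9, the inhibitor of granzyme B, from a mean of 4.73 to 112 FPKM (4.30 ± 0.11) and Serpinb6b from 9.46 to 180.0 FPKM (4.12 ± 0.10). Stx11, a syntaxin of granule release, rose by 3.49 ± 0.08, and Rab27a and Unc13d, which dock and prime granules, by 1.23 and 0.96. Fasl, the ligand of the death receptor FAS, was 0.332, 0.957 and 0.624 FPKM in naive and 13.1, 11.8 and 12.6 FPKM in spleen-primed libraries. Nkg7, a granule membrane protein, was already at 471, 441 and 450.3 FPKM in naive cells and reached 1721, 1522 and 1512 FPKM.

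The granule genes that went down did so by little. Lamp1, the lysosome membrane protein, changed by -0.16 ± 0.06 and Srgn, the proteoglycan on which granzymes are stored, by -0.21 ± 0.09. Over the libraries left out in turn, Lamp1 ranged from -0.19 to -0.14 and lost its call without naive library 2 or spleen-primed library 1 or 3. Srgn ranged from -0.27 to -0.14 and lost it without naive library 1 or 2 or spleen-primed library 2 or 3. With naive library 2 or spleen-primed library 3 left out, the list had 0 lower members. Lamp2 (0.29) and Stxbp2 (0.23) did not pass, but both did with the replicate number as a block. Lamp2 also passed without naive library 1 or without spleen-primed library 3 (0.44 and 0.37), and Stxbp2 without naive library 3 (0.35). Transcripts of this list took 0.236%, 0.217% and 0.228% of the FPKM of naive libraries 1 to 3 and 1.36%, 1.29% and 1.21% of those of spleen-primed libraries 1 to 3. Vamp7 is listed at 0 in all 6 libraries.

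Effector cytokines rose less uniformly. Of 17 cytokine and chemokine genes, 12 were tested, with 7 higher, 3 lower and a median of 0.32, which was -0.01 after quantile normalisation. Ccl5, the chemokine RANTES that is stored in effector and memory CD8 T cells, was 68.1, 253 and 130.0 FPKM in naive and 1966, 2236 and 2152 FPKM in spleen-primed libraries. Ifng was 0.0466, 2.55 and 0.337 and 19.3, 13.1 and 14.4 FPKM, Ccl4 changed by 2.40 ± 0.31 and Ccl3 by 1.66 ± 0.23. All 4 had no overlap between the groups, as had 78.2% of all genes tested. Ltb, the membrane-bound lymphotoxin that shapes lymphoid tissue, fell from 564, 589 and 548 to 151, 142 and 139 FPKM, and Lta (-1.07 ± 0.12) and Il16 (-0.92 ± 0.10) fell as well. Tnf was at 2.14 FPKM in naive and 2.19 FPKM in spleen-primed cells on average (log2 change -0.01 ± 0.21) and did not pass. Il2 had at most 0.05 FPKM in any of the 6 libraries.

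The killer cell lectin-like receptors, which sense MHC class I and stress ligands, moved one by one. Of 18 genes, 11 were tested, 7 rose and 2 fell, with a median of 0.93. Beside Klrg1, Klrc1, which encodes the NKG2A receptor, rose from 1.05, 4.38 and 2.68 to 174, 170.4 and 137 FPKM, and Klrk1, which encodes NKG2D, from 1.71, 4.88 and 3.55 to 64.3, 59.7 and 65.6 FPKM. Klrd1, the CD94 partner chain of NKG2A, was at 158, 197 and 154 FPKM in naive and 182, 197 and 156 FPKM in spleen-primed libraries, and its change of 0.07 ± 0.11 did not pass, though it passed as lower after quantile normalisation (-0.50) and with the length trend removed (-0.31). The adaptors Hcst (DAP10, -0.86 ± 0.09) and Tyrobp (DAP12, -1.44 ± 0.25) fell. Tyrobp is also a myeloid gene, and its naive values of 4.84, 9.15 and 10.8 FPKM stood beside Lyz2 at 2.12, 5.5 and 9.75 FPKM in the same libraries. The part of myeloid transcripts in that fall was not tested. Klr genes are close relatives, and how fragments shared between them were assigned is not given in the sources used here.

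Several transcription factors known from effector cells rose. The effector and memory list had 31 tested members of 36, with 17 higher (54.8%), 8 lower (25.8%) and a median of 0.98. Tbx21, which encodes T-bet, was 3.22, 5.32 and 4.08 FPKM in naive and 163, 155 and 157 FPKM in spleen-primed libraries (4.96 ± 0.12). Id2, the inhibitor of E proteins, moved from 11.9, 22.9 and 23.5 to 312, 288 and 320.0 FPKM, and its antagonist in T cell fate, Id3, from 81.3, 55.9 and 58.9 to 9.79, 9.41 and 8.9 FPKM. The pair thus exchanged places: Id3 was the higher of both in every naive library and Id2 in every spleen-primed library. Bhlhe40 (3.97 ± 0.16), Prdm1 (2.68 ± 0.12), Zeb2 (2.19 ± 0.12), Irf4 (2.77 ± 0.14), Runx2 (2.40 ± 0.19), Hopx (2.55 ± 0.11) and Batf (1.60 ± 0.09) also rose. Eomes, the T-box factor shared with memory cells, rose from 4.26, 5.22 and 7.58 to 22.8, 25 and 29.4 FPKM and so ended well below Tbx21.

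The members that fell were factors known from long-lived or resting cells and from the MYC network. Tox, a factor known from exhausted and developing T cells, fell from 18.2, 16.7 and 22 to 2.4, 3.56 and 3.8 FPKM. Bcl6 (-1.17 ± 0.09), the repressor of BLIMP1, Zeb1 (-1.43 ± 0.14), the counterpart of ZEB2, Mxd4 (-0.87 ± 0.09), Mxi1 (-0.51 ± 0.08) and Nr3c1 (-0.71 ± 0.11), the glucocorticoid receptor, fell too. Myc itself fell, from 28.3, 34.5 and 34 to 11.7, 13.9 and 17.7 FPKM (-1.12 ± 0.14). Runx3 (0.13 ± 0.37), Runx1 (0.17 ± 0.12), Gata3 (-0.02 ± 0.15) and Stat4 (0.13 ± 0.11) did not pass, though Runx1 passed as higher with the length trend removed (0.36) and Stat4 as lower after quantile normalisation (-0.32). Zbtb32, a repressor outside the list, named here because it is among the genes under 1 FPKM in every naive and above 10 FPKM in every spleen-primed library, was 0.121, 0.0974 and 0.0548 and 50.6, 52.1 and 57.5 FPKM.

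The programme of the naive state went down nearly whole. Of 36 genes of the naive state and quiescence, 35 were tested: 34 fell and 1 rose, with a median of -2.66, and 29 fell by at least 1 log2 unit. Il7r, the interleukin 7 receptor alpha chain, fell from 157, 177 and 179 to 7.4, 9.57 and 9.33 FPKM. Lef1, the partner of TCF1, fell from 207, 167 and 218 to 24.2, 21.8 and 33.7 FPKM and Bach2, which represses effector genes, from 13.7, 9.22 and 10.5 to 0.253, 0.274 and 0.424 FPKM. Foxo1 (-1.94 ± 0.15), Foxp1 (-2.71 ± 0.23), Satb1 (-2.53 ± 0.13), Actn1 (-2.66 ± 0.19) and the antiproliferative Btg1 (-3.12 ± 0.07) fell by more than 1 log2 unit. Pik3ip1, an inhibitor of PI3 kinase, fell from 83.7, 76.7 and 91.1 to 3.7, 4.78 and 5.09 FPKM, and Tsc22d3, which encodes GILZ, from 222, 279 and 225 to 26.9, 24.4 and 22.5 FPKM. Klf2, which drives S1pr1, fell by less: 287, 435 and 413 FPKM in naive and 175, 183 and 191 FPKM in spleen-primed libraries. The exception was Ly6e, higher at 0.38 ± 0.07, and this reversed to -0.33 after quantile normalisation. The list took 1.04%, 0.954% and 1.08% of the FPKM in naive and 0.235%, 0.25% and 0.282% in spleen-primed libraries 1 to 3.

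Most receptors of lymphoid homing fell. Among 10 genes of lymphoid homing and egress, 7 fell and 3 rose, with a median of -0.98. Beside Ccr7, Cxcr5 (-2.13 ± 0.12), Cxcr4 (-1.53 ± 0.38), Gpr183 (-0.87 ± 0.09) and the egress receptor S1pr1 (-0.93 ± 0.07) fell. The change of Cxcr4 was -0.97 without naive library 2. A second sphingosine receptor, S1pr5, known from effector and NK cells, went the other way, from 0.252, 0.405 and 0.665 to 21.6, 24.4 and 20.8 FPKM. Itgal, the LFA-1 alpha chain, rose by 1.24 ± 0.10 and S1pr4 by 0.75 ± 0.08, and the latter did not pass after quantile normalisation.

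Of 22 genes of homing to inflamed tissue and adhesion, 21 were tested, 18 rose and 2 fell, with a median of 1.76. Cxcr3, the receptor for interferon-induced chemokines, rose from 5.48, 16.2 and 8.33 to 206, 236 and 193 FPKM. Ccr2, a receptor for monocyte-attracting chemokines, rose from 0.753, 1.59 and 1.2 to 81.9, 86.6 and 83.3 FPKM. Cx3cr1, the fractalkine receptor of effector cells, rose from 0.493, 0.516 and 1.06 to 65.6, 67.4 and 54.3 FPKM. These 3 receptors were low in every naive library, Cxcr3 the least so. Among integrins, Itgb1 rose by 4.06 ± 0.08, and Itga4, the alpha chain that pairs with it in VLA-4, by 1.60 ± 0.11. Itgax and Itgam, the alpha chains of CD11c and CD11b, rose from means of 1.06 and 0.326 FPKM to 94.8 and 30.3 FPKM, and the part of myeloid cells in this was not tested. Among the 11 myeloid markers, Cd68 rose as well, from 0.669, 0.974 and 1.54 to 13.6, 17.4 and 15.8 FPKM, and their sum was 9.31 to 27.2 FPKM in naive and 49 to 51 FPKM in spleen-primed libraries, while Csf1r, Cd14 and Fcgr1 stayed under 1 FPKM in all 6 and Lyz2 measured 2.12, 5.5 and 9.75 and 1.7, 0.495 and 0.389 FPKM. Cd44 (2.71 ± 0.14), the hyaluronan receptor used to mark primed T cells, and Fut7 (2.10 ± 0.11), which makes selectin ligands, rose as well.

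The members of that list that fell were Ccr9, given above, and Itgae, the CD103 chain that binds E-cadherin of epithelium. Itgae was 27.6, 24.2 and 18.1 FPKM in naive and 0.217, 0.214 and 0.304 FPKM in spleen-primed libraries. Itgb7, the beta chain that pairs with it, rose from 217, 210.3 and 224 to 522, 514 and 461 FPKM. Selplg, the P-selectin ligand, was high in all 6 libraries and changed by -0.11 ± 0.12, which did not pass, though it passed as lower after quantile normalisation (-0.77). The call for Crtam (0.30 ± 0.12) was lost without naive library 1, naive library 2, spleen-primed library 2 or spleen-primed library 3 (0.19 to 0.43 over the libraries left out in turn).

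Markers of CD8 T cells were high in both groups. Cd8a was 341, 271 and 356 FPKM in naive and 203, 198 and 209.7 FPKM in spleen-primed libraries, and Cd8b1 1308, 1136 and 1313 and 874, 847 and 863 FPKM, while Cd4 stayed under 1 FPKM. Of 16 identity genes, 8 were lower and 4 higher, with a median of -0.21 and no change as large as 1 log2 unit. The coreceptor and CD3 chains fell: Cd8a changed by -0.65 ± 0.10, Cd8b1 by -0.54 ± 0.08, Cd3g by -0.75 ± 0.06, Cd3d by -0.73 ± 0.09, Cd3e by -0.48 ± 0.14 (its call was lost without the filter on low values) and Cd247, the zeta chain, by -0.63 ± 0.06. The kinases that they recruit were higher, Zap70 at 0.59 ± 0.05 and Lck at 0.39 ± 0.08, as was the adaptor Lat (0.41 ± 0.06). After quantile normalisation Lck and Lat were lower (-0.33 and -0.22), Zap70 did not pass, and 13 identity genes were lower.

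Further along the receptor's pathway the changes went both ways. Of 33 genes of proximal T cell receptor signalling, 10 were higher and 12 lower, with a median of -0.10, and after quantile normalisation 3 were higher and 24 lower. The 4 with the smallest p all fell: Txk (-1.83 ± 0.09), a TEC kinase of resting T cells, Rasgrp1 (-2.01 ± 0.15), which activates RAS, Dgka (-1.80 ± 0.14), which removes diacylglycerol, and Tespa1 (-1.06 ± 0.09). Fyn (0.74 ± 0.11), Ptpn22 (0.60 ± 0.07) and Sla (0.68 ± 0.07) were higher with the deposited values and did not pass after quantile normalisation, and Sh2d2a (0.77 ± 0.16) rose.

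Several inhibitory receptors rose with priming. Of 30 activation, costimulatory and inhibitory receptors, 28 were tested, 14 were higher (50%) and 9 lower (32.1%), shares near those of all genes, with a median of 0.40. Pdcd1, which encodes PD-1, was 0.499, 0.356 and 0.475 FPKM in naive and 30.2, 34.9 and 33.2 FPKM in spleen-primed libraries. Havcr2, which encodes TIM-3, moved from 0.977, 0.805 and 1.41 to 49.4, 51.4 and 56.3 FPKM, Lag3 from 0.435, 0.224 and 0.218 to 26.4, 26.4 and 29 FPKM and Tigit from 0.726, 1.17 and 0.82 to 54, 51.1 and 54.9 FPKM. None of the 4 overlapped between groups, nor did 78.2% of all genes tested. Ctla4 (1.60 ± 0.19) and Cd160 (2.44 ± 0.08) rose too, as did the costimulatory receptors Icos (1.46 ± 0.16) and Tnfrsf9 (2.53 ± 0.11), the 4-1BB receptor. Btla (-0.84 ± 0.11), Cd27 (-0.32 ± 0.09), Cd96 (-0.87 ± 0.08), Cd7 (-1.89 ± 0.09), Tnfrsf26 (-2.77 ± 0.11), Nt5e (-0.97 ± 0.20), Tnfrsf18 (-0.48 ± 0.09) and Tnfsf8 (-3.19 ± 0.11), the CD30 ligand, fell. Cd28 (0.23 ± 0.11) did not pass in the fit without a block, and passed with the block, with the length trend removed (0.40) or without naive library 1 (0.34).

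Cytokine receptor genes moved both ways. Of 37 genes of cytokine receptors and JAK-STAT signalling, all tested, 14 were higher (37.8%) and 16 lower (43.2%), with a median of -0.19, beside 43.1% and 32.7% of all genes. After quantile normalisation 10 were higher and 21 lower. Il2ra, the alpha chain of the high-affinity interleukin 2 receptor, rose from 0.208, 0.268 and 0.229 to 11.7, 10.04 and 15.7 FPKM, and Il2rb, the beta chain shared with interleukin 15, from 77.1, 83.4 and 71.6 to 319, 342 and 334 FPKM. The common gamma chain Il2rg fell (-0.45 ± 0.07). Both chains of the interleukin 12 receptor (Il12rb1 2.72 ± 0.09, Il12rb2 3.32 ± 0.13) and both of the interleukin 18 receptor (Il18r1 1.54 ± 0.22, Il18rap 3.72 ± 0.21) rose. Il6ra and its signalling partner Il6st (-3.85 ± 0.18) fell together, as did Il4ra (-2.23 ± 0.09), Il27ra (-1.03 ± 0.07) and Tgfbr2 (-1.03 ± 0.11).

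Ifngr2, the signalling chain of the interferon gamma receptor, fell from 18.2, 17.1 and 16.8 to 0.0758, 0.0975 and 0.0548 FPKM and was among the 27 genes above 10 FPKM in every naive and under 1 FPKM in every spleen-primed library. Its ligand-binding partner Ifngr1 was 98.2, 113 and 102 and 119, 123 and 117 FPKM. Its small rise (0.20 ± 0.07) passed with the deposited values, reversed to -0.38 after quantile normalisation, and was lost without naive library 1 or 3 or spleen-primed library 1 or 2 (0.16 to 0.26 over the libraries left out in turn). Among the feedback inhibitors, Socs3 (-3.33 ± 0.12) and Socs1 (-2.24 ± 0.12) fell and Cish (1.62 ± 0.16) and Socs2 (1.0 ± 0.15) rose. Jak1 (-0.13 ± 0.10) and Stat5a (0.03 ± 0.14) did not pass, though Jak1 passed as lower after quantile normalisation (-0.72) and both other scalings.

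Immediate early genes, which are transcribed within minutes of a stimulus or of handling, were lower in the spleen-primed cells and varied between the naive libraries. Of 26 genes 23 were tested, 18 were lower and 1 higher, with a median of -1.61. Fos was 3.22, 187 and 50.3 FPKM in naive libraries 1 to 3 and 0.786, 0.481 and 1.07 FPKM in spleen-primed libraries 1 to 3. Jun was 3.13, 99.8 and 24.8 and 1.19, 0.543 and 1.4 FPKM, and Dusp1, a MAP kinase phosphatase, 3.74, 80.8 and 18.9 and 2.98, 2.51 and 2.35 FPKM. The change of Dusp1 (-2.46) was -1.43 without naive library 2, and its call was lost without the filter on low values. Naive library 2 was the highest of the 6 in each and naive library 1 the lowest of the naive ones. Cd69, the early activation antigen that retains lymphocytes in tissue, was 57.9, 141 and 55.8 FPKM in naive and 11.8, 11.2 and 11.2 FPKM in spleen-primed libraries. Without naive library 2, 18 members were lower and 2 higher and the median was -1.31, beside 31.7% lower and 41.4% higher among all genes. What set the spread between the naive libraries was not tested.

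Several other genes moved the same way. Zfp36, which destabilises cytokine mRNA, was 101, 246 and 139.7 FPKM in naive and 22.3, 21.8 and 27.8 FPKM in spleen-primed libraries. Egr1 was 17.2, 21.6 and 9.69 and 1.67, 1.9 and 2.55 FPKM, and Nfkbia, the NF-kB inhibitor, changed by -2.04 ± 0.18. Nr4a1, a readout of T cell receptor signal strength, changed by -1.92 ± 0.45. Its change ranged from -2.35 to -1.31 over the libraries left out in turn. Dusp4 rose (1.58 ± 0.22). Dusp5, a phosphatase of ERK, was 7.89, 38.6 and 5.84 FPKM in naive and 31.6, 31.8 and 27.8 FPKM in spleen-primed libraries: naive library 2 exceeded every spleen-primed library, naive libraries 1 and 3 lay below all of them, and the change of 1.23 ± 0.51 did not pass. It passed with the block and without naive library 2 (2.01).

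**Figure D3:**
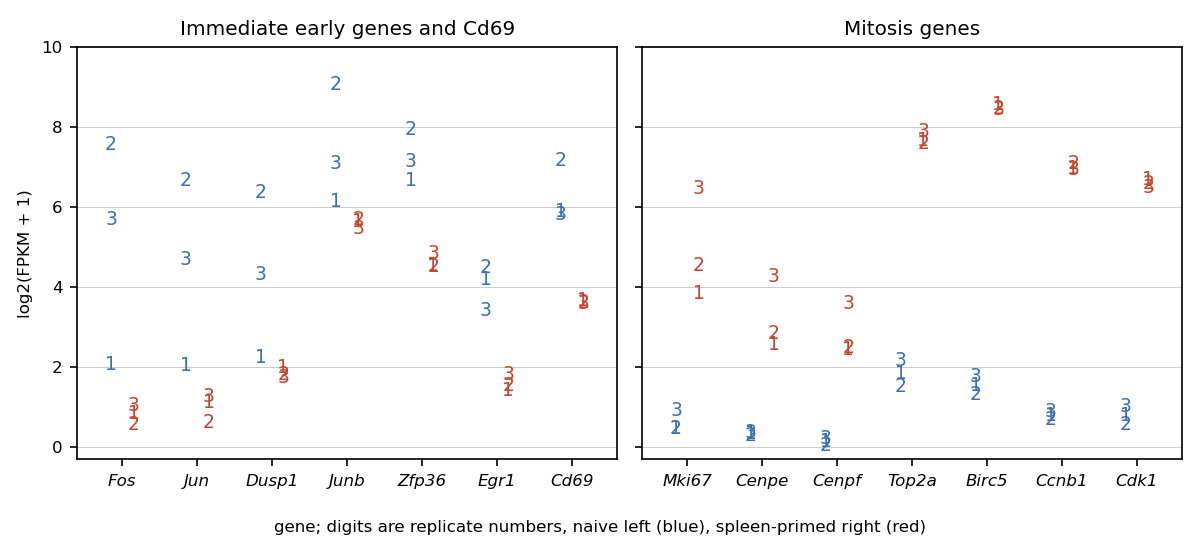
log2(FPKM + 1) of 7 immediate early and activation genes (left panel) and 7 mitosis genes (right panel), where each digit is the replicate number of 1 library, naive in blue and spleen-primed in red. Naive library 2 is highest in all 7 genes of the left panel. Spleen-primed library 3 is highest in Mki67, Cenpe and Cenpf but not in Birc5, Ccnb1 or Cdk1.

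Nearly all genes of DNA replication and mitosis rose. All 44 genes of DNA replication were tested, and 43 were higher and 0 lower, with a median of 2.78. At an unadjusted p under 0.05, 0 were lower too. The helicase subunit Mcm5 was 13.2, 13.2 and 14.7 FPKM in naive and 209, 218 and 197 FPKM in spleen-primed libraries. Rrm2, the regulated subunit of ribonucleotide reductase, was 2.62, 1.95 and 3.23 and 348, 317 and 330.0 FPKM, and Tk1, thymidine kinase, 0.73, 0.617 and 0.876 and 131, 136 and 126 FPKM. Pcna, the sliding clamp, was high in naive cells already, at 146, 121 and 119 FPKM, and reached 832, 781 and 705 FPKM. The origin-licensing factor Cdc6 (4.20 ± 0.08), the helicase activator Cdc45 (4.51 ± 0.10), thymidylate synthase Tyms (4.08 ± 0.10) and the maintenance methylation factor Uhrf1 (4.96 ± 0.11) all rose. The member that did not pass was Rfc1 (0.40 ± 0.32), the large subunit of the clamp loader, while Rfc2 to Rfc5 rose by 1.71 to 3.14.

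Of 56 genes of mitosis and chromosome segregation, 55 were higher and 0 lower, with a median of 4.53, the largest median of the 30 lists. Ccnb1, cyclin B1, was 0.751, 0.621 and 0.864 FPKM in naive and 124, 135 and 121 FPKM in spleen-primed libraries. Cdk1, its kinase, was 0.746, 0.497 and 1.02 and 102, 94.7 and 89.7 FPKM, and Plk1, the polo kinase, 0.624, 0.405 and 0.586 and 95.5, 103 and 114 FPKM. Ube2c, the ubiquitin ligase partner that ends mitosis, was 1.26, 1.17 and 2.1 and 259, 249 and 288 FPKM, and Birc5, survivin, 1.92, 1.52 and 2.44 and 378, 351 and 349 FPKM. Stmn1, which destabilises microtubules, reached the highest level of the list, 859.7, 793 and 783 FPKM from 29.7, 26 and 34.5 FPKM. The condensin gene Smc4 was the member that did not rise: it was 111, 103 and 125 FPKM in naive and 89.6, 79.96 and 119.7 FPKM in spleen-primed libraries and passed as lower without spleen-primed library 3 (-0.41), after quantile normalisation and after median-of-ratios scaling.

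Long mitotic genes differed between the spleen-primed libraries. Mki67, the proliferation antigen Ki-67, was 13.4, 22.4 and 87.1 FPKM in spleen-primed libraries 1 to 3 and 0.388, 0.399 and 0.903 FPKM in naive libraries. Cenpe, a kinetochore motor, was 4.94, 6.19 and 18.3 and 0.27, 0.222 and 0.303 FPKM. Spleen-primed library 3 was the highest in both, as it was for long transcripts in general, and both passed in every fit that left out 1 library. Without spleen-primed library 3 the mitosis list had 55 members higher and 1 lower, with a median of 4.47, beside 41.5% higher and 33.2% lower among all genes.

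The regulators of entry into the cycle rose more selectively. Of 25 G1 cyclins, CDKs, inhibitors and E2F genes, 23 were tested, 18 were higher and 4 lower, with a median of 1.67. E2f1 (2.95 ± 0.09) and E2f2 (4.0 ± 0.10), the activators, and E2f7 (2.49 ± 0.20) and E2f8 (4.61 ± 0.21), the repressors, rose. Ccne1 was 6.5, 5.98 and 6.12 FPKM in naive and 62.2, 53 and 57.1 FPKM in spleen-primed libraries. Among D cyclins, Ccnd3 rose (1.67 ± 0.06) and Ccnd2 fell (-1.0 ± 0.13). Cdkn1b, the p27 inhibitor of resting cells, fell from 47.5, 43.2 and 46.8 to 18.5, 19.2 and 18.4 FPKM, whereas Cdkn1a (2.58 ± 0.16), Cdkn2a (1.73 ± 0.14) and Cdkn2c (2.75 ± 0.08) rose. Rbl2 (-0.56 ± 0.11), the retinoblastoma relative of quiescent cells, and E2f5 (-0.50 ± 0.08) fell.

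Promoters of the lists that rose with division are described here by their letters. RefSeq windows of GRCm38.p6 from 250 bases before to 50 after the start were searched on both strands for an E2F site, as TTTGGCGC, TTTGCCGC, TTTCGCGC or TTTCCCGC, and for the CCAAT box, as CCAAT. An E2F spelling and a CCAAT box can share at most an end letter, while E2F spellings on opposite strands can share several. Of 8247 tested genes with a window, 5.26% held an E2F spelling and 44.2% a CCAAT box. Among DNA replication genes with a window, 15 of 36 held an E2F spelling (41.7%) and 61.1% a CCAAT box. For mitosis genes these were 4 of 46 (8.7%) and 73.9%, and for the G1 and E2F list 7 of 18 (38.9%) and 55.6%. The naive state genes held 0 E2F spellings in 30 genes and the cytotoxic genes 0 in 20. High shares were not confined to the division lists. Of the DNA methylation and Polycomb genes 29.4% held an E2F spelling, and of the MHC class I genes 72.2% a CCAAT box. A match is a description of the letters and not a bound site.

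The 4 promoters below, chosen after the matches were seen, are a replication gene, the kinase of mitosis, a mitotic cyclin and the gene with the largest rise. Other division genes lacked these letters: Tk1 and Rrm2 held 0 E2F spellings, and Tk1 and Birc5 held 0 CCAAT boxes. Capitals mark every E2F spelling and every CCAAT box on either strand. Mcm5 (chr8:75109259-75109558, plus strand) holds 2 E2F spellings, which share letters on opposite strands, and 3 CCAAT boxes, Cdk1 (chr10:69352863-69353162, minus strand) 1 and 3, Ccnb2 (chr9:70421505-70421804, minus strand) 0 and 3, and Gzmb (chr14:56262285-56262584, minus strand) none of either. Each is printed 5′ to 3′ along the gene.
Mcm5: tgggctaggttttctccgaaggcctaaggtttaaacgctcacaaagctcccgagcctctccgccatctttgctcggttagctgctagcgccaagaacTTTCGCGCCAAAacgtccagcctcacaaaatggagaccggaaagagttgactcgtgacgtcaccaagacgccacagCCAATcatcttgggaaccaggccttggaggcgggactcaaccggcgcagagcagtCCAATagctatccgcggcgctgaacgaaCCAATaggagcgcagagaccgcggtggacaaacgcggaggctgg
Cdk1: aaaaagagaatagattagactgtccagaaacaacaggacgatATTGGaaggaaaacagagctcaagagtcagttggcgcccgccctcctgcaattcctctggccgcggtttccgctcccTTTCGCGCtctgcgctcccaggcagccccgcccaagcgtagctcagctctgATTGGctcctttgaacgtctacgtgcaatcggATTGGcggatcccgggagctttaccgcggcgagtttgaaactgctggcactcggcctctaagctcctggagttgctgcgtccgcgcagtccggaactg
Ccnb2: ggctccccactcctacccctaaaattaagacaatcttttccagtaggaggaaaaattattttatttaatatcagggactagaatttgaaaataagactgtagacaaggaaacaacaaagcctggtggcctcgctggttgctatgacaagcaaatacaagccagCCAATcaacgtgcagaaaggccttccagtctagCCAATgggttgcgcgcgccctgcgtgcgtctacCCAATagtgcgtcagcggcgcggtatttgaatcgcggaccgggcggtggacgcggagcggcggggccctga
Gzmb: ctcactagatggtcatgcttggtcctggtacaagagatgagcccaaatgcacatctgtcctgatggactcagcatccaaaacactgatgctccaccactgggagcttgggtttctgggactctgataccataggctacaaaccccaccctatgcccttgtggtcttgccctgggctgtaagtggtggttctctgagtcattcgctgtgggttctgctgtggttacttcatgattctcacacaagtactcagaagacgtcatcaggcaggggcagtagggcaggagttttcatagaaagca

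Glycolytic genes rose in nearly every step from glucose uptake to lactate export. Of 23 genes 22 were tested, 17 were higher and 3 lower, with a median of 1.30. Gapdh was 447, 508 and 473 FPKM in naive and 2411, 2394 and 2324 FPKM in spleen-primed libraries (2.32 ± 0.07). Tpi1 was 34.3, 32.4 and 33.5 and 199.5, 192 and 185 FPKM, and Ldha, which makes lactate, 325, 293 and 259 and 941, 963 and 815 FPKM. The glucose transporters Slc2a1 (1.19 ± 0.08) and Slc2a3 (1.61 ± 0.08), Hk2 (1.94 ± 0.11), Pfkp (2.14 ± 0.07), Pgk1 (1.90 ± 0.09) and the lactate exporter Slc16a3 (2.53 ± 0.13) rose. Ldhb, the lactate dehydrogenase subunit of oxidative tissues, fell from 10.1, 5.66 and 10.5 to 0.914, 1 and 1.13 FPKM. Pfkfb4 fell (-0.95 ± 0.09), and the small fall of Eno3 (-0.47 ± 0.16) was lost without naive library 3 or spleen-primed library 1 or 2 (-0.61 to -0.36 over the libraries left out in turn). Gapdh and Actb (1.42 ± 0.11), often used as references, both changed.

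Nearly all genes of the respiratory chain rose. Of 55 genes of the respiratory chain and ATP synthase, 54 were higher and 0 lower, also at an unadjusted p under 0.05, with a median of 1.02. After quantile normalisation 42 were higher and 3 lower, and with the transcript length trend removed 47 and 3. Cox5b, a subunit of cytochrome oxidase, was 151, 175 and 153 FPKM in naive and 633, 611 and 578 FPKM in spleen-primed libraries. Ndufb7 of complex I (1.64 ± 0.08), Cyc1 of complex III (1.17 ± 0.09) and Atp5b of the ATP synthase (1.13 ± 0.09) rose by similar amounts. Uqcrh of complex III was 587, 700.1 and 594 and 636, 638 and 518 FPKM and did not pass, though it passed as lower with the length trend removed (-0.62) and after quantile normalisation (-0.67). Transcripts of the list took 1.39%, 1.36% and 1.38% of the FPKM in naive libraries 1 to 3 and 2.95%, 2.89% and 2.73% in spleen-primed libraries 1 to 3.

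Of 26 genes of the TCA cycle and pyruvate entry, 21 were higher and 3 lower, with a median of 0.59. The strongest changes were falls of the kinases that switch off pyruvate dehydrogenase: Pdk1 went from 46.4, 43.4 and 49.7 to 3.93, 4.6 and 5.15 FPKM and Pdk2 from 8.35, 8.04 and 9.3 to 0.103, 0.195 and 0.232 FPKM. Most enzymes of the cycle rose, among them Idh3a (1.51 ± 0.07), Fh1 (1.54 ± 0.08), Sdhb (1.45 ± 0.07) and citrate synthase Cs (1.18 ± 0.07). Idh2 fell slightly (-0.26 ± 0.07).

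Genes of lipid and nucleotide synthesis and of amino acid supply rose in part. Of 24 cholesterol genes, 16 were higher and 0 lower (at an unadjusted p under 0.05, also 0), with a median of 0.90. After quantile normalisation 2 were lower. Sqle (1.72 ± 0.07), Idi1 (2.15 ± 0.14) and Cyp51 (1.83 ± 0.13), enzymes of the pathway, rose, while the regulators Srebf2 (-0.19 ± 0.12), Scap (0.03 ± 0.08) and Insig1 (0.18 ± 0.11) did not pass. Srebf2 passed as lower without spleen-primed library 3 (-0.30), after quantile normalisation (-0.60) and after median-of-ratios or trimmed mean scaling (-0.31 and -0.29). Scap passed as higher with the length trend removed (0.20) and as lower after quantile normalisation (-0.21). Of their promoters, 16 of 18 held a CCAAT box (88.9%), and 1 held the sterol element TCACNCCAC, against 1.32% of all tested genes.

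Of 25 fatty acid genes, 15 were higher and 5 lower, with a median of 0.50. Fabp5, the fatty acid carrier, rose from 5.17, 3.99 and 5.48 to 80.1, 81.9 and 71.1 FPKM and Scd2, a desaturase, by 2.34 ± 0.11. Elovl6 (-1.16 ± 0.16), Elovl5 (-0.69 ± 0.09), Acsl3 (-0.84 ± 0.08) and Acadm (-0.75 ± 0.07) fell. Of 30 genes of nucleotide and one-carbon synthesis, 26 were higher and 1 lower, with a median of 0.89. The serine synthesis enzymes Phgdh (1.88 ± 0.09) and Psat1 (2.88 ± 0.12) and the mitochondrial folate enzyme Mthfd2 (1.94 ± 0.09) rose, Psat1 from 14.6, 14.7 and 13.1 to 116, 121 and 96 FPKM. The member that fell was Prps2 (-0.35 ± 0.10), whose call was lost with the length trend removed (-0.23).

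Of 20 genes of amino acid and nutrient transport, 12 were higher and 1 lower, with a median of 0.60. Asns, asparagine synthetase, was 0.139, 0.0668 and 0.0251 FPKM in naive and 7.33, 6.51 and 7.49 FPKM in spleen-primed libraries, and Slc43a3, a purine transporter, 0.905, 0.614 and 0.636 and 23.9, 26 and 25.6 FPKM. Tfrc, the transferrin receptor (1.34 ± 0.10), and Slc7a5, the leucine transporter (1.03 ± 0.08), rose, while the partner chain of the latter, Slc3a2, was slightly lower (-0.22 ± 0.07). That call was lost without spleen-primed library 2 (-0.19).

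Ribosomal protein genes were lower in the spleen-primed cells. A list of 88 cytosolic ribosomal protein genes was added after the values were seen. Of these 86 were tested, 72 were lower and 4 higher, with a median of -0.85, and -0.39 after quantile normalisation with 62 lower and 14 higher. With the length trend removed, 80 were lower and 3 higher, with a median of -1.20. The genes of the list took 46.2%, 50.4% and 46.9% of the FPKM in naive libraries 1 to 3 and 28.1%, 27.7% and 25.4% in spleen-primed libraries 1 to 3, with no overlap between the groups. Rps27rt was 16134, 20391 and 16082 FPKM in naive and 4781, 4843 and 3852 FPKM in spleen-primed libraries. Rps24 (-1.65 ± 0.12), Rps29 (-1.40 ± 0.09) and Rpl12 (-1.45 ± 0.13) fell as well. Rps27l (1.97 ± 0.14), a p53 target, Rpl26 (2.22 ± 0.11) and Rpl7l1 (0.70 ± 0.09) were higher, as was Rpl30 (0.65 ± 0.11), whose call was lost with the length trend removed (0.20) and after quantile normalisation (0.17). Many of these genes have near-identical copies and pseudogenes (Rps27rt and Rps27, for example), and how shared fragments were split is not given in the sources used here, so single members are uncertain.

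Genes of translation factors moved both ways. Of 35 genes of translation initiation and elongation, 16 were higher (45.7%) and 11 lower (31.4%), shares near those of all genes. The median was 0.24, and -0.14 after quantile normalisation. Eef1a1 was 13633, 16535 and 14349 FPKM in naive and 9809, 10135 and 8003 FPKM in spleen-primed libraries, a change of -0.67 ± 0.13 that did not pass after quantile normalisation or without the filter on low values. Eef1b2 fell too (-1.06 ± 0.12). The helicase subunits split: Eif4a1 rose from 329.6, 290.4 and 304 to 613, 602 and 555 FPKM and Eif4a2 fell from 131, 159 and 162 to 43.1, 35.4 and 35.6 FPKM. Eif4e, the cap-binding protein, rose by 1.01 ± 0.09 and Eif5a by 1.29 ± 0.09.

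Of 39 ribosome biogenesis genes, 13 were higher and 6 lower, with a median of 0.04, shares below those of all genes in both directions. After quantile normalisation 8 were higher and 17 lower. Nhp2 (1.08 ± 0.10), Bop1 (0.76 ± 0.06), Noc4l (0.82 ± 0.07) and Bysl (0.79 ± 0.08) rose, and the RNA polymerase I subunits Polr1b (-0.59 ± 0.10), Polr1c (-0.53 ± 0.10) and Polr1a (-0.52 ± 0.14) fell, Polr1a not once the length trend was removed. Npm1 (-0.17 ± 0.08) and Ncl (-0.09 ± 0.19), the abundant nucleolar proteins, did not pass. Npm1 passed as lower without naive library 1 (-0.23), with the length trend removed (-0.38), after quantile normalisation (-0.67) and after median-of-ratios or trimmed mean scaling (-0.30 and -0.27), and Ncl after quantile normalisation (-0.63). Tcof1 was 8.33, 12.7 and 36 FPKM in spleen-primed libraries 1 to 3 and 26.5, 29.9 and 36.5 FPKM in naive libraries. It passed as lower with the block or without spleen-primed library 3 (-1.49).

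**Figure D4:**
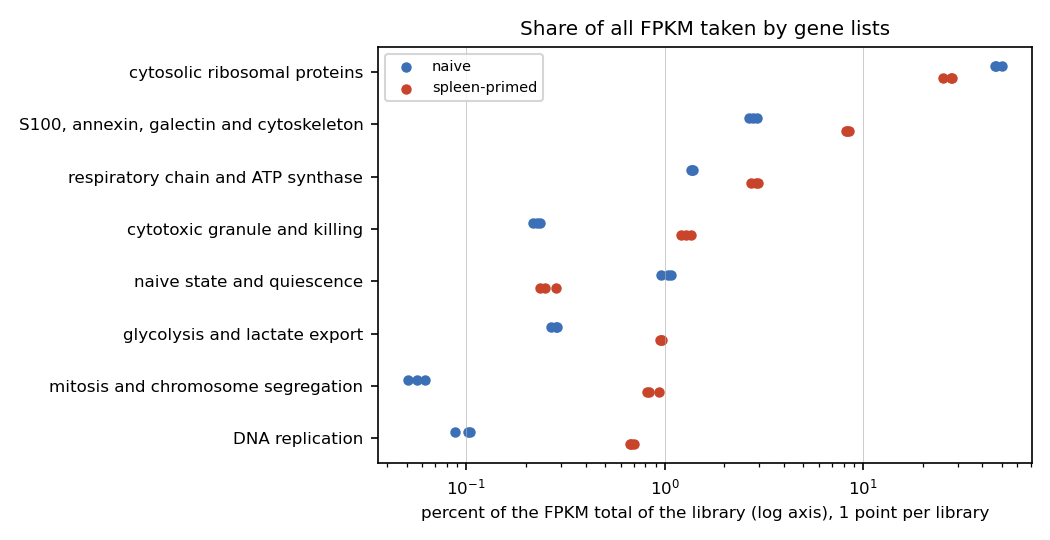
Percent of the FPKM total of each library taken by 8 gene lists (log axis), naive libraries in blue and spleen-primed libraries in red, 1 point per library. Ribosomal proteins and naive state genes take a smaller share in the spleen-primed libraries and the other 6 lists a larger one, with no overlap between the groups.

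Most genes of the cytoskeleton and its calcium-dependent partners rose. Of 30 S100, annexin, galectin and cytoskeleton genes, 27 were higher and 1 lower, with a median of 1.66. Lgals1, a galectin secreted by activated T cells, was 193, 201 and 183 FPKM in naive and 5327, 5233 and 4317 FPKM in spleen-primed libraries. Anxa2 was 23.8, 27.1 and 25.6 and 1282, 1239 and 1197 FPKM, and Vim, vimentin, 174, 171 and 162 and 1507, 1512 and 1522 FPKM. The spleen-primed values of Vim and Anxa2 lay within a narrow range, those of Lgals1 less so. Lmnb1, lamin B1, rose by 4.25 ± 0.12, Tuba1b by 2.42 ± 0.10 and Anxa1 by 5.55 ± 0.20. Tubb2a fell (-1.50 ± 0.11), and Tmsb10 (-0.11 ± 0.10) did not pass, while its relative Tmsb4x rose by 1.15 ± 0.10. The direction of Tmsb10 depended on the processing: it passed as lower with the length trend removed (-0.61) and as higher after quantile normalisation (0.50). The list took 2.93%, 2.67% and 2.79% of the FPKM in naive and 8.5%, 8.32% and 8.17% in spleen-primed libraries.

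More interferon-stimulated genes were lower than higher. Of 46 genes 42 were tested, 24 were lower and 7 higher, with a median of -0.48. Ifit1 was 18.7, 9.04 and 15 FPKM in naive and 1.16, 1.44 and 1.71 FPKM in spleen-primed libraries. Rtp4 was 33.9, 18.3 and 26.6 and 1.99, 2.63 and 2.13 FPKM, and Isg15, the ubiquitin-like modifier, 29.8, 17.3 and 19.4 and 8.65, 10.1 and 10.3 FPKM. Irf7 (-1.18 ± 0.16), Irf9 (-0.88 ± 0.11), Usp18 (-1.01 ± 0.10) and Oasl2 (-2.41 ± 0.10) fell. The membrane proteins Ifitm1 (5.42 ± 0.19), Ifitm2 (1.68 ± 0.21) and Ifitm3 (1.25 ± 0.23), which block virus entry, rose, Ifitm1 from 0.0934, 0.226 and 0.168 to 60.8, 37.1 and 50.9 FPKM. Gbp3 (1.51 ± 0.07) and Oas3 (0.70 ± 0.17) rose too, and the small rise of Mx1 (0.52 ± 0.16) was lost without the filter on low values and was 0.34 without spleen-primed library 3. The rise of Cmpk2 (0.37 ± 0.15) was lost without naive library 2 or 3 or any 1 spleen-primed library (0.20 to 0.52 over the libraries left out in turn).

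The MHC class I list held opposite movements. Of 22 genes 21 were tested, 9 were higher (42.9%) and 5 lower (23.8%), beside 43.1% and 32.7% of all genes. The median was 0.08, and after quantile normalisation 5 were higher and 11 lower. The loading chaperones Pdia3 (1.58 ± 0.07), Calr (1.16 ± 0.08) and Canx (1.13 ± 0.07) and the immunoproteasome subunit Psmb9 (1.47 ± 0.09) rose. The class I chains H2-K1 (-0.74 ± 0.08), H2-T23 (-0.74 ± 0.08) and H2-Q4 (-0.87 ± 0.14) and their partner B2m (-0.41 ± 0.07) were lower, B2m not after quantile normalisation. H2-Q7 rose from 52.9, 49.9 and 35 to 182, 144 and 143 FPKM. The class I genes share long near-identical stretches, so their single values are uncertain.

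GIMAP and Schlafen genes, small families of resting lymphocytes, moved both ways. Of 15 genes 14 were tested, 7 were lower and 4 higher, with a median of -0.14. Slfn1 was 121, 91.2 and 109 FPKM in naive and 12.1, 15 and 16.2 FPKM in spleen-primed libraries, and Slfn5 was 17.3, 12.5 and 16.7 and 0.533, 0.638 and 0.575 FPKM. Gimap7 (1.89 ± 0.08) and Gimap4 (1.01 ± 0.07) rose, and Gimap3 (-0.88 ± 0.11) and Gimap6 (-0.69 ± 0.07) fell.

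Survival genes moved both ways. Of 30 genes 29 were tested, 15 were higher (51.7%) and 8 lower (27.6%), with a median of 0.27, shares near those of all genes. After quantile normalisation 12 were higher and 11 lower. Bcl2, the survival factor of naive cells, fell from 27.8, 29.96 and 29 to 1.29, 1.23 and 2.47 FPKM, while its relatives Bcl2l1 (1.24 ± 0.08) and the near-identical copies Bcl2a1b (3.41 ± 0.13) and Bcl2a1d (4.26 ± 0.11) rose. The death triggers Bcl2l11, which encodes BIM (-1.98 ± 0.11), Bbc3, which encodes PUMA (-2.62 ± 0.13), and Bmf (-1.18 ± 0.10) fell. Pmaip1, which encodes NOXA, rose by 1.20 ± 0.23, and Mcl1 fell (-0.87 ± 0.09).

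Chromatin genes moved both ways. Of 21 genes of DNA methylation and Polycomb, 20 were tested, 6 were higher and 10 lower, with a median of -0.27. Ezh2, the histone H3 lysine methyltransferase of Polycomb, was 6.32, 6.14 and 7.2 FPKM in naive and 72.2, 70.2 and 80.1 FPKM in spleen-primed libraries, and its relative of resting cells, Ezh1, 17, 18 and 18.8 and 4.97, 5.58 and 6.87 FPKM. Dnmt1, the maintenance methyltransferase, rose by 1.93 ± 0.30, whereas the de novo enzymes Dnmt3a (-0.10 ± 0.21) and Dnmt3b (-0.15 ± 0.10) did not pass, though Dnmt3b passed as lower after median-of-ratios or trimmed mean scaling (-0.23 and -0.22). Tet3 (-2.16 ± 0.30) and the demethylase Kdm6b (-2.36 ± 0.29) fell.

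**Figure D5:**
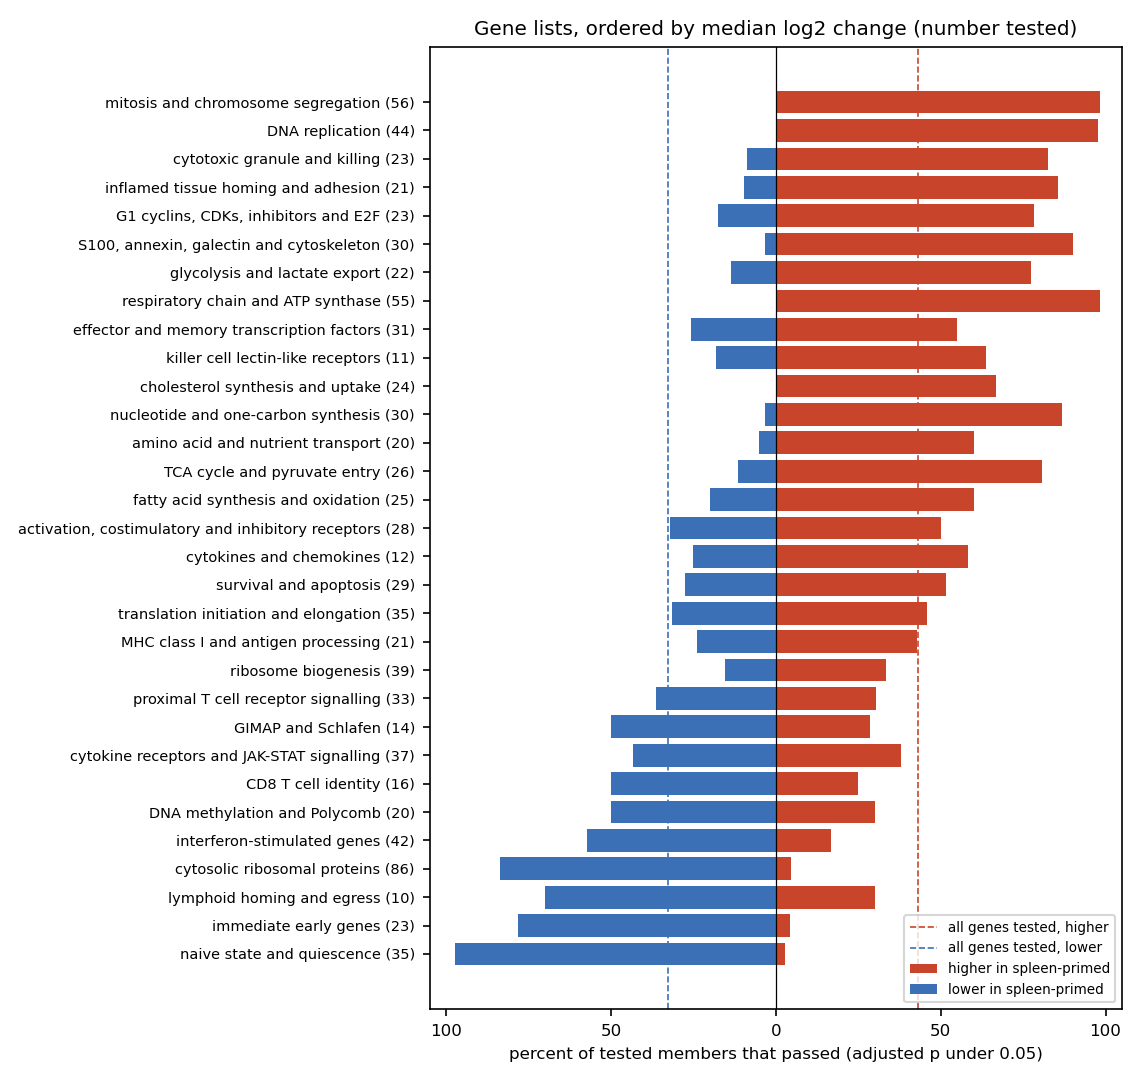
Percent of the tested members of 31 gene lists that were higher (red, to the right) or lower (blue, to the left) in spleen-primed cells at an adjusted p under 0.05, ordered by median log2 change, with the number tested in brackets. The dashed lines mark the 43.1% higher and 32.7% lower among all genes tested. Mitosis and DNA replication stand at the top and the naive state list at the bottom.

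Markers of other cell types were low or shared with effector cells. Defining B cell genes were near 0: Ms4a1 and Cd79a stayed under 1 FPKM in all 6. For 10 B cell markers the summed level was 11.6 to 15.2 FPKM in naive and 7.98 to 9.44 FPKM in spleen-primed libraries. For 7 plasma cell markers it was 14.1 to 15.5 and 48.1 to 67.1 FPKM, carried by Xbp1 and Irf4, which T cells express. For 10 NK cell markers it was 634 to 658 and 3718 to 4752 FPKM, carried by Nkg7 and Klrd1 in naive cells and by Gzma and Nkg7 in spleen-primed cells, while the NK receptor Ncr1 stayed under 1 FPKM. The sum of the 11 myeloid markers, given above, was mostly Itgam and Cd68 in the spleen-primed libraries.

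Some markers were higher in the naive libraries. For 10 dendritic cell and MHC class II markers the sum was 94.6 to 167 FPKM in naive and 96 to 106 FPKM in spleen-primed libraries, the latter almost all Itgax. H2-Aa alone was 23.6, 36.7 and 39.7 and 1.78, 0.448 and 0.576 FPKM, while Flt3 and Zbtb46, which define dendritic cells, stayed under 1 FPKM. For 8 neutrophil markers the sum was 3.57 to 39.1 and 0.342 to 1.3 FPKM, and Elane was listed at 0 in both groups. For 6 CD4 T cell markers it was 19.8 to 23.7 and 12.9 to 17.5 FPKM, and for 9 red cell and platelet markers 8.25 to 57.1 and 3.06 to 30.2 FPKM. For 10 stromal and endothelial markers it was 37.5 to 44.2 and 3.19 to 4.58 FPKM, almost all Pecam1, which naive T cells also carry. Of 10 gamma delta T cell markers 4 have no value, and the others summed to 1.95 to 6.2 and 2.25 to 3.06 FPKM. The part of other cells in the changes of shared genes was not tested.

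The same genes were then set against the cells primed in the MLN, a comparison that shares the spleen-primed libraries. Of the 29 named genes described, 10 differed between the primed groups at an adjusted p under 0.05, beside 30.4% of all genes. Ccr9 differed most: 16.3, 22.9 and 22.2 FPKM in MLN-primed libraries 1 to 3 against 0.0349, 0.0807 and 0.0419 FPKM in spleen-primed libraries (log2 difference 4.33 ± 0.15). S100a4 was 612, 564 and 569 FPKM in MLN-primed and 2971, 2883 and 2515 FPKM in spleen-primed libraries (-2.26 ± 0.09). The other genes that differed were Klrg1 (-1.23 ± 0.24), Dapl1 (-1.48 ± 0.21), Tcf7 (-0.73 ± 0.20), Nsg2 (-0.61 ± 0.16) and Lgals3 (-0.42 ± 0.13), lower in MLN-primed cells, and Igfbp4 (0.60 ± 0.13), Ccr7 (0.46 ± 0.12) and Fam101b (0.42 ± 0.08), higher in them. The granzymes Gzmb (-0.36 ± 0.16), Gzmk (-0.22 ± 0.14) and Gzma (-0.47 ± 0.24) did not pass this test, nor did any of the 8 named genes of division, whose differences ran from -0.12 (Ube2c) to 0.24 (Rrm2). A p that misses the threshold does not show that the groups were alike.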

How the data were processed

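The authors deposited 1 table of FPKM per gene for all 9 libraries, and a second table identical to it was not used. The RNA was extracted with a kit for small samples and made into stranded mRNA libraries, per the labels' protocols, and per the submitters' processing notes TopHat, Cufflinks and the mouse build mm10 were used. Whether the quantification used strand, and how fragments shared between copies were assigned, is not given in the sources used here. Of 24067 rows, 131 without a gene symbol were left out (0.0479% of FPKM).

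Values were taken as log2(FPKM + 1), with a filter of 1 FPKM in at least 3 libraries. A fold on this scale understates the change of low genes. One limma fit (limma 3.58.1 with a variance trend, R 4.3.3) of 3 group means over the 9 libraries gave each log2 change, its standard error (printed as value ± SE) and a two-sided p, adjusted by Benjamini-Hochberg over the 10185 genes and called under 0.05. FPKM hold no read numbers, so no count model was used. On simulated libraries with 200 of 10185 genes changed, this fit recovered 90.5% of changes of 1 log2 unit and 58.8% of changes of 0.5, with 3.94% false calls. The simulated noise was normal and independent between genes. In the data 75.8% of genes were called, so the simulated rates need not hold there. Further steps used Python 3.11.15 with pandas 2.3.3, numpy 2.4.6, scipy 1.17.1 and matplotlib 3.10.9.

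The 30 gene lists, 10 marker lists and the comparison were chosen with earlier results of these data known, and the ribosomal protein list was added after the values were seen. Lists are described by counts and medians, with no set test. The named genes are the 15 largest rises and falls among called genes with no overlap between groups and a mean of at least 5 FPKM in the higher group, of which 1 of the falls is not reported here. A few other members of the lists are not reported singly, and the counts and medians of the lists include them. Gene models known only by a predicted or clone name, small RNAs, pseudogenes of ribosomal proteins and antigen receptor segments were not named. In each list the 4 members with the smallest p, the members against its direction and members a paragraph is about may be named as well.

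Replicate numbers come from the titles, which do not say that a number marks a shared animal or day. After subtraction of group means, same-numbered naive and spleen-primed libraries correlated across genes at 0.160, 0.116 and 0.236, and differently numbered ones at -0.181 to 0.0567. The numbers may thus pair the libraries, but the main fit holds no block. Changes, errors and p-values are printed from that fit, also those against MLN-primed cells. For spleen-primed against naive cells, the fit with the block is given where it changes a call. Calls against MLN-primed cells were not checked with the block or with the alternatives that follow. Alternatives were other scalings, filters, a smaller pseudocount, 6 libraries only, other variance models, removal of the transcript length trend and each library left out. Promoter windows and gene positions came from RefSeq tables for GRCm38.p6, matched by symbol or gene ID, and transcript lengths matched 10087 of the genes tested (99.0%).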

Additional observations from a re-analysis of the deposited data

Results flagged for a closer look

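Of the 29 named genes described, 10 differed between cells primed in the MLN and in the spleen by a test of that difference (limma, Benjamini-Hochberg adjusted over all genes, 3 libraries a group), and these are listed because the primed groups did not share the size of the change from naive cells. Ccr9 was higher in MLN-primed cells by 4.33 log2 units (adjusted p 7.9e-07), Igfbp4 by 0.60 (0.0064), Ccr7 by 0.46 (0.018) and Fam101b by 0.42 (0.0044). The log2 difference was -2.26 for S100a4 (adjusted p 1.1e-06), -1.48 for Dapl1 (8.0e-04) and -1.23 for Klrg1 (0.0044). It was -0.73 for Tcf7 (adjusted p 0.020), -0.61 for Nsg2 (0.015) and -0.42 for Lgals3 (0.035). Among all genes tested 30.4% differed between the primed groups. The MLN-primed libraries also differ from the spleen-primed ones by tissue, so tissue and route cannot be told apart.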

How the results depend on the processing

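Higher and lower calls over all genes stayed within 1.5 times of 4387 and 3331 in every alternative run. They were 4172 to 4347 and 2996 to 3383 with each library left out in turn, 3545 and 4070 after quantile normalisation, 3907 and 3852 after median-of-ratios scaling and 3726 and 2291 with a filter of 5 FPKM. With the replicate number as a block they were 4480 and 3448, and among the 901 genes of the lists the block ended 0 calls and gained 13, and those of the 13 that the text names are given there. Of 761 called list genes, 63 lost their call and 18 reversed after quantile normalisation, and 31 and 2 did so with the length trend removed. Each other setting ended at most 35 of these calls and reversed 0, while a filter of 5 FPKM left 64 list genes untested. The reversed ones named in the text were Lck (-0.33), Lat (-0.22), Ly6e (-0.33) and Ifngr1 (-0.38) after quantile normalisation. The small calls of Crtam, Cmpk2 and Ifngr1 were also lost after median-of-ratios scaling (0.18, 0.27 and 0.080) and trimmed mean scaling, and those of Crtam, Cmpk2, Lamp1 and Srgn in a fit of 6 libraries only. In the direction that led in each list, the counts that moved past 1.5 times after quantile normalisation were CD8 identity genes lower (13, from 8), T cell receptor signalling genes lower (24, from 12), ribosome biogenesis genes higher (8, from 13) and MHC class I genes higher (5, from 9). In the other direction they were CD8 identity genes higher (0, from 4), naive state genes higher (0, from 1), T cell receptor signalling genes higher (3, from 10), ribosomal protein genes higher (14, from 4) and members lower for ribosome biogenesis (17, from 6; 11 after median-of-ratios or trimmed mean scaling), MHC class I (11, from 5), TCA cycle (6, from 3), fatty acids (8, from 5), amino acid transport (5, from 1), nucleotide synthesis (3, from 1), respiratory chain (3, from 0), cholesterol (2, from 0), cytoskeleton (2, from 1) and mitosis (1, from 0). With a filter of 5 FPKM, the counts in the leading direction that did so were lectin-like receptors higher (3, from 7), activation receptors higher (9, from 14) and immediate early genes lower (11, from 18), since fewer genes were tested. The cause of the others was not tested. FPKM without read numbers limit what can be said of genes near 1 FPKM.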

Other observations

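Metallothioneins, which bind zinc and copper, went from near 0 to clear expression in the spleen-primed cells. Mt1 was 0, 0.607 and 0.338 FPKM in naive and 75.3, 66 and 95.7 FPKM in spleen-primed libraries, Mt2 0, 0 and 0.109 and 35.7, 25.6 and 42.4 FPKM, and Mt3 0, 0.102 and 0 and 29.2, 23.4 and 26.2 FPKM. They were among 116 genes under 1 FPKM in every naive library and at least 10 FPKM in every spleen-primed library, chosen here after their values were seen. Esm1, a secreted proteoglycan known from endothelium, was 0.0505, 0 and 0.0456 and 39.5, 35.1 and 34.3 FPKM, and Adap1, an ARF GTPase-activating protein, 0.373, 0.616 and 0.416 and 55.6, 56.6 and 55.8 FPKM.

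The 27 genes that went the other way included receptors for neural and lipid signals. Vipr1, the receptor for vasoactive intestinal peptide, was 20.9, 20.6 and 22.5 FPKM in naive and 0.291, 0.307 and 0.331 FPKM in spleen-primed libraries. Cnr2, the cannabinoid receptor of immune cells, was 18.8, 16.7 and 16.7 and 0.21, 0.192 and 0.217 FPKM, and Ramp1, the partner chain of the CGRP receptor, 13.5, 13.3 and 14.7 and 0.091, 0.078 and 0.0438 FPKM. The amino acid transporter gene Slc6a19 was 13.8, 11.9 and 13.1 FPKM in naive libraries and listed at 0 in all 3 spleen-primed libraries.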
